A study of Mus musculus with 4 samples.

Results

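Integrins are the receptors by which cells hold on to the extracellular matrix, and laminins are basement membrane proteins that several of them bind. The 38 genes described here are the 27 integrin and 11 laminin chains of the mouse, chosen by symbol among the 21883 protein-coding genes of chromosomes 1 to 19, X and Y in RefSeq's gene table (GRCm38.p6, which is mm10); the integrin-like gene Itgbl1 was left out. Accessible DNA at these genes was read from ATAC-seq peak lists, an assay in which open chromatin is cut and tagged by a transposase. A region is the union of all peaks that share at least 1 bp across libraries, and a region belonged to a gene when a peak of it touched the gene body or its 20 kb flanks. By this rule the 38 genes held 379 of the 90239 regions of the series.

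The cells were mouse embryonic fibroblasts of the iMGT-Myh6-eGFP-MEF line, in which doxycycline switches on Mef2c, Gata4 and Tbx5 (MGT), the factors used to turn fibroblasts into cells like heart muscle. They had received siChst7 (2 libraries), an siRNA against the chondroitin sulfate sulfotransferase gene Chst7, or siControl (2 libraries). Induction of MGT with 1 μg/mL doxycycline and harvest at day 1 were common to both groups, as was freezing of the cells before the assay, so no library shows the line without MGT. The labels name a single line and call the replicates biological without saying whether they came from separate cultures, so every spread given here is one between these libraries and may be technical.

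The lists held 74402 and 66165 peaks in siChst7 replicates 1 and 2, against 73902 and 75696 in siControl. The background read density solved from the steps of the fold enrichment was 1.02 and 0.757 in siChst7 and 1.00 and 0.963 in siControl, each relative to siControl replicate 1, so siChst7 replicate 2 was the shallowest library. Read totals and the knockdown of Chst7 itself cannot be read from peak lists. The labelled cell type was set beside gene-end peaks, that is peaks within 1 kb of either end of a gene. Such a peak was called in all 4 libraries at 5 of 8 fibroblast markers (Col1a1, Col1a2, Thy1, Twist1 and Vim), 2 of 7 cardiomyocyte markers (Myh6 and Tnnt2), 1 of 7 leukocyte markers (Spi1), 1 of 5 epithelial markers (Krt8), 1 of 4 platelet markers (Gp9) and 0 of 5 endothelial markers. Among the 21883 protein-coding genes 53.8% had one, close to that of the fibroblast markers, of which Dpt, Lum and Prrx1 had no such peak in any library. Itgam, among the leukocyte markers, is also an integrin gene described here.

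An integrin is a pair of 1 alpha and 1 beta chain, and the alpha chain largely sets the ligand. Itga1, Itga2, Itga10 and Itga11 pair with Itgb1 to bind collagen, and Itga3, Itga6 and Itga7 bind laminin. Itga5, Itga8, Itgav and Itga2b read the RGD motif of fibronectin, vitronectin and fibrinogen, and Itga4 and Itga9 recognise other short motifs. Itgal, Itgam, Itgax, Itgad, Itgae, Itgb2 and Itgb7 are chains of white blood cells, and Itgb2l is a relative of Itgb2. A laminin joins 1 alpha, 1 beta and 1 gamma chain. Lama3 and Lamb3 are chains of the laminin that anchors epithelia, whereas Lamb1 and Lamc1 are found in many tissues. Fibroblasts grip their matrix through Itgb1, with Itga5 for fibronectin and Itga11 for collagen among its best known partners there.

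An annotated start was at hand for 24 of the 38 members in the RefSeq promoter table of the same build. The start lay under a peak in all 4 libraries for 12 of these 24, against 47.1% of the 17491 protein-coding genes with a start in the table. These were Itga1, Itga2, Itga3, Itga5, Itga8, Itga10, Itgav, Itgb1, Itgb5, Itgb8, Lama5 and Lamb2. Lamb1 and Itgb6 had a peak over the start in 3 libraries; the region itself was called in all 4 for both, but its edge stopped short of the start in siChst7 replicate 1 for Lamb1 and in siControl replicate 1 for Itgb6. The 10 of 24 with no peak over the start in any library were Itga2b, Itga4, Itga9, Itga11, Itgam, Itgax, Itgb2l, Itgb7, Lama2 and Lamb3. Of the 17491 protein-coding genes 49.3% had none.

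The 250 bases before the start show how these sets differ in sequence. They are given for 5 members with a region over the start, with each CpG (a C followed by a G) in capitals and the rest in lower case, 5′ to 3′ on the strand of the gene.
Itgb1, chr8:128685404-128685653, plus strand: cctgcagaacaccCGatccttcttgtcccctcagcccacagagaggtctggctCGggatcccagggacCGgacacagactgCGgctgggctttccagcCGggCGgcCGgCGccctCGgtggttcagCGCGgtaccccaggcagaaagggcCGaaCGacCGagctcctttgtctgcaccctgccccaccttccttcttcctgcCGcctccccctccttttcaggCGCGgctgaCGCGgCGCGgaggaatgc
Itgb8, chr12:119238277-119238526, minus strand: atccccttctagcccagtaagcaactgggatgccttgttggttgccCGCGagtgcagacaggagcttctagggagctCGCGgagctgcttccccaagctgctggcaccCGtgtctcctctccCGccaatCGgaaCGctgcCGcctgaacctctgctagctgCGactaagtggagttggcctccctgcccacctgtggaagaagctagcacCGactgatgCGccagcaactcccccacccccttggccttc
Itga8, chr2:12301945-12302194, minus strand: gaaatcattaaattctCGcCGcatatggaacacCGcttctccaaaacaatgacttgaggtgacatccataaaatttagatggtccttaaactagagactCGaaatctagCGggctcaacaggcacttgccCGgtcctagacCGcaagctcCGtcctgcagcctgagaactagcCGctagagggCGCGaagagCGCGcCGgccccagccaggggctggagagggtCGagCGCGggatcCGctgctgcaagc
Itga5, chr15:103366792-103367041, minus strand: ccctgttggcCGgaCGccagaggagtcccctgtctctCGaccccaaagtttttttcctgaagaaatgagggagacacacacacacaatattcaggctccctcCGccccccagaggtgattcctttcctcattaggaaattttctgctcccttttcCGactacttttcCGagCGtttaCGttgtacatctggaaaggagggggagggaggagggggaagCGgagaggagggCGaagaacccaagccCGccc
Lamb1, chr12:31265043-31265292, plus strand: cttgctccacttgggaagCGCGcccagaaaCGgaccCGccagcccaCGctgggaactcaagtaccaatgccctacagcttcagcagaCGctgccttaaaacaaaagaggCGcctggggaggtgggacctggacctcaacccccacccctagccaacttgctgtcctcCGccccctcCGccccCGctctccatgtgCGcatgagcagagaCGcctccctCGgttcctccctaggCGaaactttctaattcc
The same stretch follows for 3 members without a peak over the start, the lymphocyte chain Itga4, the myeloid chain Itgam and the platelet chain Itga2b.
Itga4, chr2:79255176-79255425, plus strand: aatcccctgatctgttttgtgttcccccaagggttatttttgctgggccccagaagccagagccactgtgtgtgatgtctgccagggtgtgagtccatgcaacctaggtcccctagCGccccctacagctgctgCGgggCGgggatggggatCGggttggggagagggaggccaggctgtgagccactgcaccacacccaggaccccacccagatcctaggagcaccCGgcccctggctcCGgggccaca
Itgam, chr7:128062390-128062639, plus strand: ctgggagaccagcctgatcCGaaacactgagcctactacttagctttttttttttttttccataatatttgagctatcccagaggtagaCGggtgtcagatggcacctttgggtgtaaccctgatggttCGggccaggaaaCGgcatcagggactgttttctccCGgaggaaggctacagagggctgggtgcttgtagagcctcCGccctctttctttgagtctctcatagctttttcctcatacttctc
Itga2b, chr11:102469884-102470133, minus strand: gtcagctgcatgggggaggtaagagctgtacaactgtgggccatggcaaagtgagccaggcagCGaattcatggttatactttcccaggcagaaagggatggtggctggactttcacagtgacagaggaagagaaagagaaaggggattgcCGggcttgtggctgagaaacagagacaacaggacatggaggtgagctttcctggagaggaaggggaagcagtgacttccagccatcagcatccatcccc

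The first 5 hold 21, 12, 18, 11 and 14 CpG, the last 3 hold 6, 6 and 2. Over all 12 members with the start under a peak in all 4 libraries the median was 15 CpG (lowest 2, at Itga10, highest 22, at Itga3). Over the 10 with no peak over the start it was 5 (lowest 0, at Lama2, highest 12, at Itga11). All protein-coding genes in the table showed the same order, with a median of 17 CpG where the start was under a peak in all 4 libraries and 3 where it was under none; the order was thus shared with genes at large. Base composition went with it, at a median GC of 61.6% and 55.2% in these members and 60.4% and 48.8% in all genes. The exceptions among members were Itga10 and Lamb2, open with 2 and 3 CpG, and Itga11 and Itga9, without a peak over the start at 12 and 10 CpG.

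**Figure D1:**
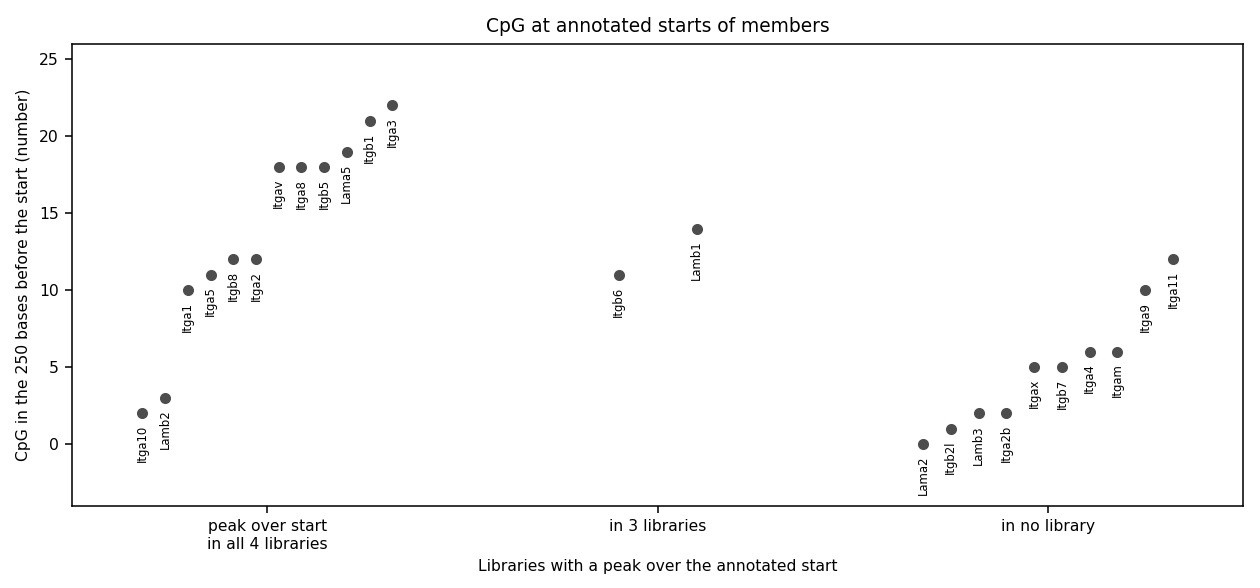
Number of CpG in the 250 bases before the annotated start (vertical axis) for the 24 members with a start, grouped by the libraries with a peak over the start; each point is 1 gene, shown by the start with the most calls. Points with a peak in all 4 libraries run between 2 and 22 CpG, those in no library between 0 and 12.

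Letter strings known as factor motifs were counted in the same 250 bases on both strands, with possible overlap between strings. The GC box GGGCGG was in 5 of the 12 open starts and 2 of the 10 others, against 62.5% and 23.8% of all genes so split. The CCAAT box CCAAT was in 3 of the 24 members (36.3% of all genes), the ETS string CCGGAA in 1 (15.5%), the TEAD string GGAATG in 2 (11.6%), the AP-1 string TGANTCA in 1 (6.24%), the GATA string AGATAA in 1 (8.88%) and the T-box string GGTGTG in 4 (15.7%). A string is a description of sequence and not a bound site.

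Gene ends could be read for all 38 members. A peak within 1 kb of either end was called in all 4 libraries for 20 members (52.6%), against 53.8% of all protein-coding genes. It was called in none for 14 of the 38, against 41% of all protein-coding genes. The remaining 4 had one in some libraries: Itga11 and Lama1 in 3, Itgam in both siControl libraries, and Itgb2l in siChst7 replicate 1. The 20 were Itga1, Itga2, Itga3, Itga5, Itga6, Itga8, Itga10, Itgb1, Itgb2, Itgb3, Itgb5, Itgb6, Itgb8, Lama3, Lama4, Lama5, Lamb1, Lamb2, Lamc1 and Lamc3. Among the 14 without were Itga2b, Itga4, Itga7, Itga9, Itgad, Itgae, Itgal, Itgav, Itgax, Itgb4, Itgb7, Lama2 and Lamb3. Itgav shows the limit of this measure: no peak lay at the ends of its gene model, but a region over its annotated start at chr2:83723893-83724586 was called in all 4 libraries, 1.59 kb inside the model.

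For each of the 20 the gene-end region with the highest mean fold enrichment was taken, 1 region a gene. At these ends the beta chains Itgb8 and Itgb1 stood highest by the fold enrichment in the authors' lists, the ratio of the pileup at a peak's summit to the local background of that library. Itgb8, which activates latent TGF-beta together with Itgav, had 14.1 and 15.7 in siChst7 and 16.0 and 15.4 in siControl (chr12:119237748-119239088). Itgb1, the beta chain shared by most matrix receptors, had 13.3 and 14.6 in siChst7 and 14.5 and 15.6 in siControl (chr8:128685132-128686595). The ranges of both siRNAs overlap at either gene.

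Itga8, a receptor of mesenchyme and smooth muscle, followed with 11.9 and 14.8 in siChst7 and 13.4 and 13.4 in siControl. The collagen receptor Itga1 had 13.2 and 13.4 in siChst7, between the 14.6 and 11.7 of siControl. Itga10, a collagen receptor of cartilage, had 13.4 and 14.6 in siChst7 and 11.8 and 11.6 in siControl at a region 0.402 kb inside its end coordinate (chr3:96663469-96664117). The region over the annotated start of Itga10 had 7.70 and 10.0 in siChst7 and 9.56 and 9.76 in siControl, which overlap. Among the best regions of the 10 highest genes the one near the end coordinate of Itga10 had both siChst7 values above both siControl values, as did the one at Lamc3. When all regions called in all 4 libraries were ranked by fold enrichment within each library, 19.5% ranked higher in both siChst7 libraries. That share compares ranks and not the ratios themselves. By rank the best end region of Lamb2 was higher as well. Lamc3, a gamma chain, had 11 and 11.8 in siChst7 and 10.8 and 10.4 in siControl (chr2:31948297-31949239).

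Itgb2, the common beta chain of leukocyte integrins, had 11.2 and 10.9 in siChst7 and 10.0 and 12.5 in siControl at a region 0.710 kb inside the gene, in a line of fibroblasts. Lamb2 had 10.1 and 10.1 in siChst7 and 9.60 and 10.1 in siControl. Lamc1, the gamma chain of most laminins, had 7.71 and 9.10 in siChst7 and 8.10 and 8.54 in siControl. The laminin receptor chain Itga6 had 6.59 and 8.45 in siChst7 and 6.58 and 7.08 in siControl. The groups overlap at Itgb2, Lamc1 and Itga6.

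The 3 lowest of these 20 best regions were those of Itga3, Lama4 and Lama5. Itga3, a laminin receptor of epithelia, had 5.13 and 5.08 in siChst7, both below the 5.38 and 5.27 of siControl. Lama4, a laminin chain of blood vessels, had 4.48 and 4.37 in siChst7 and 5.36 and 5.42 in siControl, so that both siChst7 values lay below. By rank of the fold enrichment the regions of Itga3 and Lama4 were lower too, as were 18.4% of all regions called in all 4 libraries. Lama5 had 4.32 and 5.26 in siChst7 and 4.07 and 4.56 in siControl. Between these and the top were Itga5, Itgb6, Lama3, Lamb1, Itgb3, Itga2 and Itgb5, with means between 5.56 and 7.12. Itga5, the main fibronectin receptor, had 6.04 and 7.61 in siChst7 and 7.0 and 7.81 in siControl.

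The −log10 q of the same regions followed another order. That of Itgb1 was 177 and 154 in siChst7 and 207 and 222 in siControl. At Itgb8 it was 123 and 105 in siChst7 and 148 and 120 in siControl. Itgb1 thus led by this measure, and both its siChst7 values lay below both siControl values. Of all regions called in all 4 libraries, 20.2% ranked lower by −log10 q in both siChst7 libraries and 20.2% ranked higher. Lamc3 had 124 and 104 in siChst7 and 113 and 95.7 in siControl. For Lamb2 the values were 109 and 86.5 in siChst7 and 97.7 and 102 in siControl. Lamc1 showed 87.4 and 83.7 in siChst7 and 93.9 and 95.5 in siControl. The region of Lamc1, at 2079 bp, was the widest of the 13 named and that of Itga10, at 649 bp, the narrowest. Itga1 had 81.1 and 66.5 in siChst7 and 85.9 and 63.8 in siControl. Itga8 reached 53.8 and 61.7 in siChst7 and 70.3 and 64.5 in siControl. At Itga8 and Lamc1 both siChst7 values were thus the lower ones, but their percentiles among the regions called in all 4 libraries overlap. These percentiles were 63.0 and 75.0 in siChst7 and 71.0 and 68.9 in siControl at Itga8. At Lamc1 they were 77.7 and 82.9 in siChst7 and 79.1 and 79.7 in siControl. Itga10 stood at 79 and 73.1 in siChst7 and 59.7 and 59.6 in siControl, where siChst7 was higher in each pairing of libraries. Itgb2 had 91.4 and 62.2 in siChst7 and 75.2 and 86 in siControl. Itga6 came to 18.6 and 25.1 in siChst7 and 18.6 and 19.4 in siControl. At Itga6 it lay below that of Itga3 in every library. The 3 lowest by fold enrichment had the following −log10 q: Itga3 (38.8 and 26.6 in siChst7 and 41.1 and 36.9 in siControl), Lama4 (13.1 and 8.44 in siChst7 and 18.2 and 17.6 in siControl) and Lama5 (26 and 29.7 in siChst7 and 22.8 and 29.5 in siControl).

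**Figure D2:**
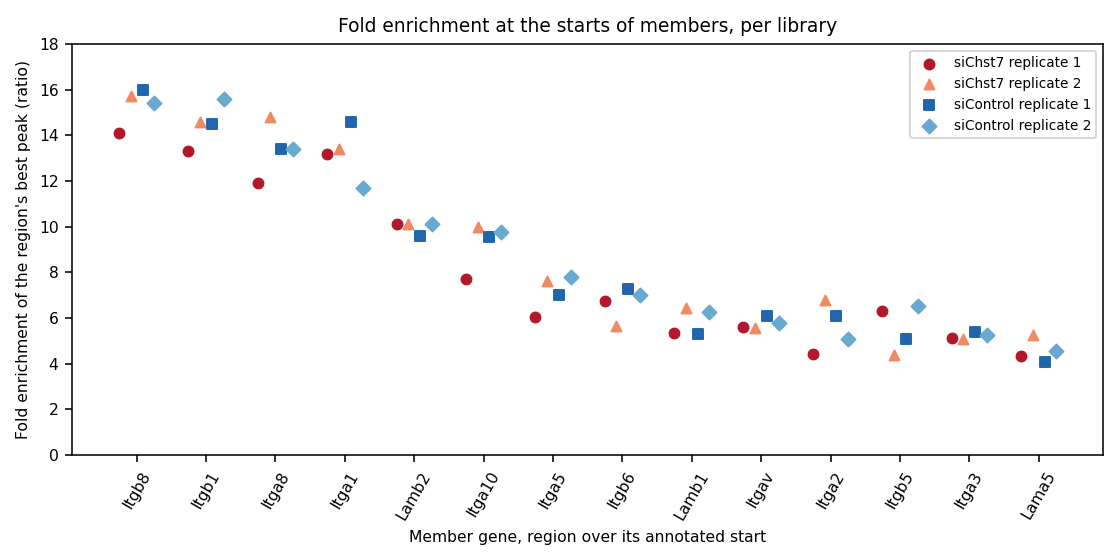
Fold enrichment (vertical axis, ratio from 0) of the best peak in the region over the annotated start of 14 members, ordered by their mean; each point is 1 library, siChst7 in red and orange, siControl in blue. Itgb8, Itgb1, Itga8 and Itga1 lie above 11 in every library, Lama5 between 4.07 and 5.26.

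Beyond the ends, the members were rich in regions. The median member was 62.1 kb long, against 17.2 kb for all protein-coding genes, and held 9.35 regions per 100 kb of window, against 6.50. Of the 379 regions 29 lay at an end, 212 elsewhere in a body and 138 in a flank. Those called in all 4 libraries numbered 244 (64.4%), against 62.0% of all regions, and their share was 82.8% at ends, 57.1% in bodies and 71.7% in flanks. A further 39 were called in 3 libraries, 18 in 1 library of each siRNA and 60 in a single library. By class the share called in all 4 was highest for the laminin-binding alpha chains (23 of 30 regions, 76.7%) and the RGD-binding ones (33 of 44, 75.0%), and lowest for the pair Itga4 and Itga9 (7 of 18, 38.9%). Of the 23 at laminin-binding chains, 10 lay in the window of Itga7, where 2 were in the gene body. The leukocyte chains had 32 of 52 (61.5%) and the laminin alpha chains 37 of 65 (56.9%). The median fold enrichment of the 244 was 8.50, against 9.29 for all shared regions, and the median −log10 q (the authors' q-value of the summit) 35.7 against 35.1. The flanks belong in part to neighbours: 142 regions lay outside every member body, 55 of them inside another protein-coding gene, and for 79 the nearest gene end was not that of a member.

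**Figure D3:**
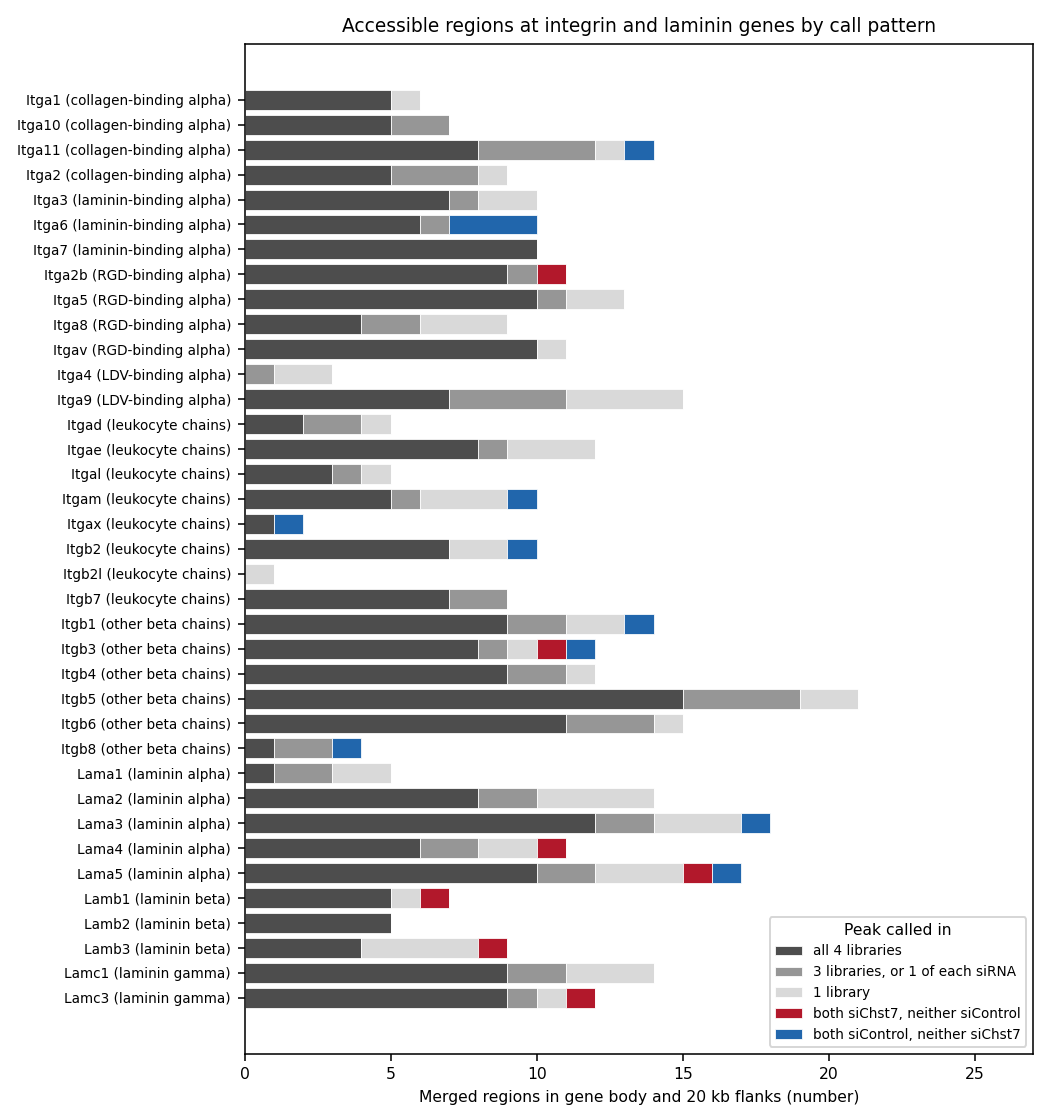
Number of merged regions (horizontal axis) in the body and 20 kb flanks of each member reported here, grouped by class and coloured by the libraries in which a peak was called; regions in the windows of 2 members are drawn at both. Itgb5 has 21 regions and Itgb2l 1, and red and blue mark siChst7-only and siControl-only regions.

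The beta chains outside the leukocyte class held 78 regions, 53 of them (67.9%) shared, against 62.0% of all regions. Itgb5, which pairs with Itgav to bind vitronectin, held 21 regions, 15 of them in all 4 libraries, with the highest mean fold enrichment at 15.1 and 13.3 in siChst7 and 15.1 and 18.4 in siControl, 8.46 kb outside its start coordinate. Itgb6 held 15 regions, 11 shared. Its highest site, 33.0 kb from an end inside the gene (chr2:60688804-60689595), had 22.7 and 22.9 in siChst7 and 21.9 and 21.8 in siControl, both siChst7 values above both siControl values. By rank of the fold enrichment it was higher too, as were 19.5% of all regions called in all 4 libraries. Itgb1 had 9 shared of 14, Itgb3 8 of 12 and Itgb4, the chain of hemidesmosomes, 9 of 12, although no peak lay at the ends of Itgb4. Itgb8, with the highest gene-end peak, held 4 regions, 1 of them shared.

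Among alpha chains, every one of the 10 regions in the window of Itga7, the laminin receptor of muscle, was called in all 4 libraries. So were 10 of 11 at Itgav and 10 of 13 at Itga5. In the gene body itself lay 2 of the 10 regions at Itga7, 9 of the 11 at Itgav and 4 of the 13 at Itga5, and the rest were in flanks. Itga11, the collagen receptor of fibroblasts, had 8 shared of 14, the one with the highest −log10 q inside the gene at chr9:62777292-62777932 with 10.3 and 12.1 in siChst7 and 10.8 and 11.9 in siControl. Next to its start lay a weak region with fold enrichments of 3.02 in siChst7 replicate 1 and of 4.03 and 3.61 in siControl, and no call in siChst7 replicate 2, the shallowest library. Itga1 held 5 shared of 6, Itga2 5 of 9, Itga10 5 of 7, Itga3 7 of 10, Itga6 6 of 10, Itga8 4 of 9, Itga2b 9 of 11 and Itga9 7 of 15.

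At the low end, Itga4, the lymphocyte receptor for VCAM1, had 3 regions and none called in all 4 libraries. The most frequent of them, at chr2:79262077-79262344, was called with 6.78 and 4.83 in siChst7 and 7.33 in siControl replicate 2. Itgb2l had a single region, called in siChst7 replicate 1 alone at 4.95. In the windows of the other leukocyte genes, Itgae had 8 shared regions of 12, Itgb2 7 of 10, Itgb7 7 of 9, Itgam 5 of 10, Itgal 3 of 5, Itgad 2 of 5 and Itgax 1 of 2. Of these shared regions, 3 each lay in the bodies of Itgae, Itgb2 and Itgam, 2 in Itgb7 and 1 each in Itgal, Itgad and Itgax. The others lay in flanks, which belong in part to neighbours. The share of the leukocyte class, 61.5%, was near the 62.0% of all regions. The shared site inside Itgax (chr7:128136813-128137783) reached 12.0 and 13.7 in siChst7 and 13.1 and 16.0 in siControl. Leukocyte markers, which include Itgam itself, had gene-end peaks in all 4 libraries at 1 of 7 genes, against 53.8% of all protein-coding genes. Whether white blood cells take part in these sites was not tested.

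Of the laminins, Lama3 held 12 shared of 18 regions, Lama5 10 of 17, Lamc1 9 of 14, Lamc3 9 of 12, Lama2 8 of 14, Lama4 6 of 11, Lamb1 5 of 7, Lamb2 5 of 5 and Lamb3 4 of 9. Lama1, the chain of early embryos, held 1 of 5. Lama2, the chain of muscle basement membrane and at 636 kb the longest member, had 2.07 regions per 100 kb of window against 19 at Lama5.

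In 6 of the 9 classes the region with the highest mean −log10 q lay inside a neighbour and in no member. These were regions in H3f3b near Itgb4, Qars near Lamb2, Pdk2 near Itga3, Fam207a near Itgb2, Adrm1 near Lama5 and Rbm8a near Itga10. The one near Itgb4 had −log10 q of 257 and 220 in siChst7 and 315 and 278 in siControl, with fold enrichments of 10.7 and 11.3 in siChst7 and 12.3 and 11.5 in siControl. The one near Itga3 had −log10 q of 264 and 172 in siChst7 and 247 and 262 in siControl and fold enrichments of 14.2 and 12.6 in siChst7 and 13.4 and 14.6 in siControl. A window with 20 kb flanks thus takes in sites of its neighbours. For Lamb2 the region in Qars had −log10 q of 232 and 191 in siChst7 and 302 and 292 in siControl and fold enrichments of 15.5 and 16.8 in siChst7 and 18.6 and 18.2 in siControl. For Itgb2 the region in Fam207a had −log10 q of 246 and 180 in siChst7 and 262 and 228 in siControl and fold enrichments of 16.6 and 16.5 in siChst7 and 17.4 and 15.8 in siControl. Both siChst7 libraries were the lower ones by −log10 q and by its rank in Qars, and 20.2% of all regions called in all 4 libraries ranked lower likewise. For Lama5 the region in Adrm1 had −log10 q of 236 and 184 in siChst7 and 184 and 229 in siControl and fold enrichments of 13.3 and 13.5 in siChst7 and 11.2 and 12.8 in siControl. For Itga10 the region in Rbm8a had −log10 q of 161 and 105 in siChst7 and 147 and 149 in siControl and fold enrichments of 17.8 and 16.4 in siChst7 and 17.8 and 17.3 in siControl. In the class of RGD-binding alpha chains the leader lay inside a member. It was at Itga2b, the platelet fibrinogen receptor, and had −log10 q of 202 and 159 in siChst7 and 208 and 191 in siControl at chr11:102466749-102467650, with fold enrichments of 11 and 10.9 in siChst7 and 11.2 and 10.9 in siControl. The class of Itga4 and Itga9 was led by a site 19.7 kb outside Itga9 with 54.7 and 41.0 in siChst7 and 61.0 and 55.7 in siControl and fold enrichments of 7.47 and 7.30 in siChst7 and 7.77 and 7.83 in siControl. siChst7 replicate 2, with a relative density of 0.757, had the lowest −log10 q of the 4 libraries at each leader named here, level with siControl replicate 1 at the one in Adrm1; the part of depth was not tested.

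Between siChst7 and siControl, 7 member regions (1.85%) had a peak in each siChst7 library and in no siControl library (siChst7-only), against 1.24% of all regions. A further 11 (2.90%) had a peak in each siControl library and in no siChst7 library (siControl-only), against 2.84% of all regions. Of the 122 regions at laminin genes 5 were siChst7-only (4.10%) and 2 siControl-only (1.64%). Of the 257 at integrin genes 2 were siChst7-only (0.778%) and 9 siControl-only (3.50%). Of the siChst7-only regions, 1 of the laminin ones and 1 of the integrin ones lay inside a neighbouring gene. These counts are a description: an exact permutation over 2 libraries a group cannot go below p = 0.333, and regions are not replicates. They changed with list length: when every list was shortened to its best 66165 peaks, the counts were 12 and 4, against 1.98% and 2.05% of all regions. Leaving out 1 library asks for 1 call less and gave 12 (without siChst7 replicate 1), 25 (siChst7 replicate 2), 14 (siControl replicate 1) and 19 (siControl replicate 2) siChst7-only regions, and in the same order 27, 16, 31 and 29 siControl-only regions. Of the member regions in each case these were 3.31%, 6.65%, 3.86% and 5.28%, and 7.44%, 4.26%, 8.54% and 8.06%. With 1 library left out the shares of all regions were not determined, so these counts have no background.

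The strongest siChst7-only region lay inside Lamc3 at chr2:31917577-31918002, 30.3 kb from the gene's end. It had fold enrichments of 7.25 and 8.41 and −log10 q of 35.1 and 37.3 in siChst7, and no peak in siControl. The next lay 2.09 kb outside Lama4 (chr10:39112279-39112709), with −log10 q of 13.2 and 7.02 and fold enrichments of 7.16 and 5.43 in siChst7. Another lay 2.99 kb outside Itgb3, the beta chain of the vitronectin and platelet receptors (chr11:104673469-104673885), with −log10 q of 8.72 and 6.69 and fold enrichments of 4.86 and 4.68. These 3 kept the pattern with a −log10 q of at least 5, at equal list length and with peaks of at least 200 bp. The Lamc3 site alone also kept it with a −log10 q of at least 10.

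Weaker siChst7-only regions lay inside Lamb3 (chr1:193342311-193342621; −log10 q 10.5 and 3.93, fold 6.36 and 4.19) and inside Lamb1 (chr12:31306251-31306588; 8.04 and 4.38, fold 4.29 and 3.61). The remaining pair lay inside neighbours, in Osbpl2 near Lama5 (chr2:180159268-180159694; 5.47 and 5.96, fold 4.45 and 4.78) and in Grn near Itga2b (chr11:102436361-102436711; 4.29 and 4.37, fold 2.44 and 2.76). None of these 4 passed all 3 filters: the ones at Lamb3 and Lamb1 lost a call at a −log10 q of 5, the one in Osbpl2 at equal list length and the one in Grn under both. The lists hold peaks down to a −log10 q of 2.00, so values near 4 are close to the limit of calling.

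On the siControl side the strongest region lay 0.936 kb outside the end coordinate of Itgb2 (chr10:77566644-77566952), with −log10 q of 18.3 and 23.0 and fold enrichments of 4.46 and 5.05 in siControl. The next lay deep inside Lama3, the epithelial laminin chain (chr18:12459119-12459503), with −log10 q of 13.4 and 16.0 and fold enrichments of 7.54 and 8.52. Neither had a peak in siChst7, and both kept the pattern under the 3 filters.

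Itga6, the alpha chain of the main laminin receptors of epithelia and stem cells, held 3 of the 11 siControl-only regions, all inside the gene. They lay at chr2:71816725-71817024 (−log10 q of 13.0 and 10.2 in siControl, fold 6.01 and 5.57), chr2:71852421-71852609 (10.4 and 7.83, fold 6.51 and 5.68) and chr2:71801832-71802321 (4.11 and 4.33, fold 4.11 and 4.26). The whole window of Itga6 accordingly held 6 and 7 peaks in siChst7, against 10 and 11 in siControl, groups that do not overlap. These counts include the 3 siControl-only regions and so are no separate support. Window counts were also lower in both siChst7 libraries at Itga9, Itgae and Itgax. At Lama4 they were higher, with 12 and 8 in siChst7 and 7 and 7 in siControl. The share of all genes with such counts was not determined. The peak at the start of Itga6, by contrast, was present in all 4 libraries. None of the 3 siControl-only regions of Itga6 passed every filter. The first pair named stayed siControl-only with a −log10 q of at least 5 and at equal list length, and the last with peaks of at least 200 bp. Itga6 was singled out after its values were seen.

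The other 6 siControl-only regions lay inside Itga11 (chr9:62732673-62733117; −log10 q 5.69 and 6.41, fold 3.86 and 4.21), 11.3 kb outside Itgb1 (chr8:128744888-128745256; 5.39 and 7.71, fold 3.27 and 3.77), 0.241 kb outside Itgam and within the window of Itgax (chr7:128118732-128119507; 6.83 and 4.71, fold 4.89 and 4.33), 10.4 kb outside Itgb8 (chr12:119248680-119248945; 5.75 and 4.33, fold 4.80 and 4.26), inside Lama5 (chr2:180193921-180194463; 2.78 and 5.18, fold 3.07 and 4) and 4.54 kb outside Itgb3 (chr11:104675017-104675230; 3.30 and 3.42, fold 3.73 and 3.82). None passed all 3 filters. Those at Itgb1 and Itga11 failed at equal list length alone, those at Itgam and inside Lama5 at a −log10 q of 5 and at equal list length, and those at Itgb8 and Itgb3 in every case. Itgb3 and Lama5 thus had 1 region on either side, and both regions of Itgb3 lay outside the same end of the gene.

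**Figure D4:**
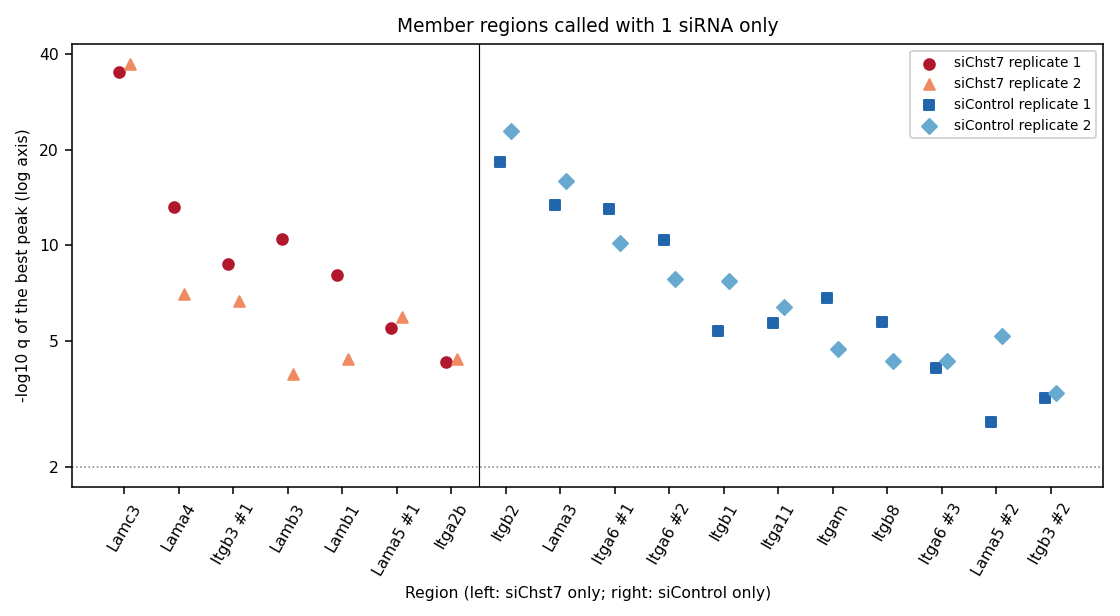
−log10 q of the best peak (vertical axis, log scale) in each library for the 18 member regions called with 1 siRNA only; the 7 left of the line are siChst7-only, the 11 right of it siControl-only, and the dotted line marks 2, the lower limit of the lists. Apart from Lamc3, at 35.1 and 37.3, and Itgb2, at 18.3 and 23.0, the values stay at or below 16.0.

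For the 244 shared regions the siRNAs were compared by rank. In each library the 55924 regions called in all 4 were ordered by −log10 q and given a percentile, so that the 4 orders have equal length. Both siChst7 percentiles lay above both siControl percentiles at 54 member regions (22.1%), against 20.2% of all shared regions, and below at 55 (22.5%), against 20.2%. The median difference, siChst7 minus siControl, was 0.17 percentage points at members and −0.04 over all shared regions. By class it ran between −1.81 for laminin alpha chains and 2.80 for laminin gamma chains, and the differences of single regions between −23.3 and 21.6. These shares lay close to those of all regions.

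The regions that ranked furthest apart are named here after their values were seen. Higher with siChst7 were a region inside Itga2 (chr13:114860091-114860684), at percentiles 31.9 and 47.7 in siChst7 and 19.5 and 17 in siControl, and one inside Itga11 (chr9:62775394-62776086), at 44.5 and 49.4 in siChst7 and 32.9 and 18.1 in siControl. Another lay in Bloc1s1 near Itga7 (chr10:128921758-128922470), at 46.8 and 58.3 in siChst7 and 30.8 and 33.7 in siControl. At all 3 the fold enrichments were higher in both siChst7 libraries too, for Itga2 at 10.2 and 12.2 in siChst7 and 8.23 and 7.81 in siControl.

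Lower with siChst7 were regions inside Lama5 (chr2:180205816-180206274), at percentiles 0.2 and 2.2 in siChst7 and 30.6 and 18.3 in siControl (fold enrichments 2.93 and 3.64 in siChst7, 5.89 and 4.94 in siControl), inside Lamb3 (chr1:193332552-193333044), at 34.5 and 43.4 in siChst7 and 58.4 and 58.0 in siControl, and inside Itga5 (chr15:103347308-103347758), at 38.3 and 24.7 in siChst7 and 49.4 and 48.8 in siControl. At Lama5 a neighbouring region (chr2:180207759-180208320) was lower as well, with 2.8 and 3.3 in siChst7 and 10.8 and 29.4 in siControl. The end regions of Lama4, Lama3 and Lamb1 (chr12:31265752-31266442) were also lower in both siChst7 libraries, by 12.2, 8.3 and 12.7 percentage points on average, against end regions of Itga10 and Lamc3 that were higher by 11 and 5.4. Other end regions of Itga10, Lamc3 and Lamb1 overlapped, and Lama3 and Lama4 had no other. Over the start of Itga10 the percentiles were 21.4 and 43.6 in siChst7 and 38.9 and 41.8 in siControl. At the other end of Lamc3 they were 23.5 and 34.8 in siChst7 and 26.2 and 24.0 in siControl. The region over the start of Lamb1 had −log10 q of 21.8 and 21.6 in siChst7, between the 18.7 and 26.3 of siControl.

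**Figure D5:**
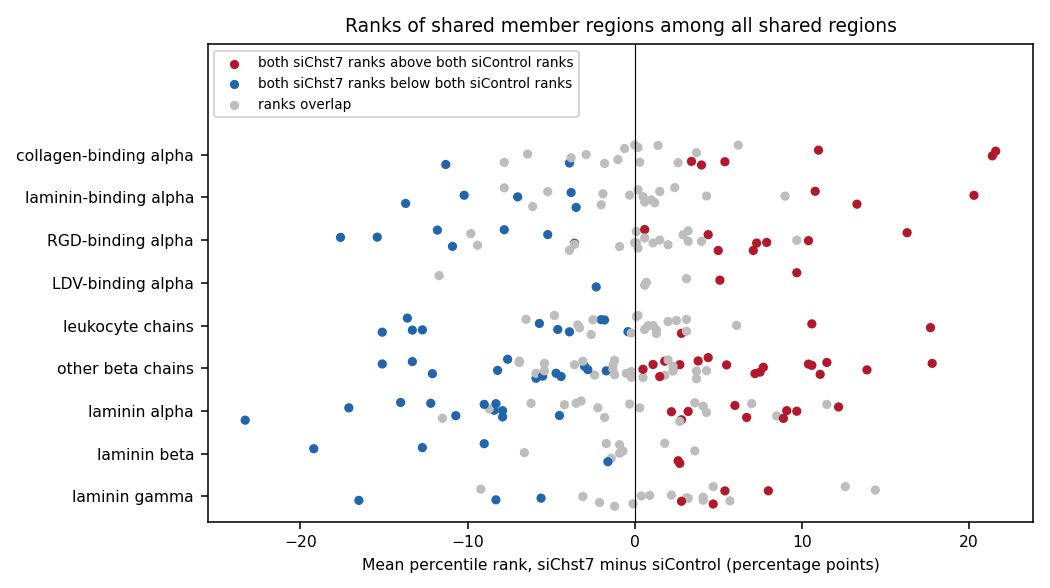
Difference of the mean percentile rank, siChst7 minus siControl in percentage points (horizontal axis), for each of the 244 shared member regions, by class; red points have both siChst7 ranks above both siControl ranks, blue points below, grey points overlap. The points spread to both sides of 0, with extremes of −23.3 at Lama5 and 21.6 at Itga2.

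The share of each list that fell to these genes did not differ beyond what 2 libraries a group can show. Peaks at the 38 genes numbered 319 and 292 in siChst7 and 311 and 325 in siControl. They made up 0.429% and 0.441% of the siChst7 lists and 0.421% and 0.429% of the siControl lists, or 0.435% ± 0.00889 and 0.425% ± 0.00603 (SD, n = 2 each). The difference of 0.00995 percentage points did not pass an exact permutation test over libraries (two-sided p = 0.667, smallest possible 0.333). Within each list the median member peak stood at percentile 51.4 and 50.6 in siChst7 and 51.3 and 50.6 in siControl by −log10 q (exact permutation p = 0.667, two-sided).

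Inside the cell, talins, kindlins and focal adhesion kinase tie integrins to actin, and outside it nidogens, perlecan and collagen IV join laminins into a sheet. Of 25 adaptor and kinase genes 17 had a gene-end peak in all 4 libraries, against 53.8% of all protein-coding genes, among them Tln1, Tln2, Fermt1, Fermt2, Vcl, Ilk, Ptk2, Pxn and Zyx. Their bodies held 235 regions, 163 of them (69.4%) shared, 3 siChst7-only and 6 siControl-only, against 62.0%, 1.24% and 2.84% of all regions. The counts called with 1 siRNA only were near those shares. The siChst7-only regions lay in Tns3, Ptk2 (focal adhesion kinase) and Pxn (paxillin), the siControl-only ones in Tns1, Tns2, Tns3 (at 2 sites), Ptk2b and Lims2. The strongest was in Tns3, a tensin (chr11:8545776-8546085), with −log10 q of 26.5 and 18.6 in siControl.

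Of 21 basement membrane partners and further laminin receptors 14 had a gene-end peak in all 4 libraries, against the same 53.8% of all genes, among them Nid1, Nid2, Hspg2 (perlecan), Agrn, Dag1, Col4a1, Col4a2 and Fn1. Of their 134 body regions 90 (67.2%) were shared, 2 were siChst7-only and 4 siControl-only, also near the shares of all regions (62.0%, 1.24% and 2.84%). The siChst7-only ones lay in Ntn4 (chr10:93667932-93668306; −log10 q 17.1 and 14.3) and Nid1 (3.88 and 3.46). Those of siControl lay in Col4a4 (24.8 and 13.9), Ntn1 (22.9 and 24.4), Col4a2 (12.4 and 12.7) and Col4a6 (9.39 and 12.8).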

How the data were processed

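Bulk ATAC-seq of 4 libraries, 2 with siChst7 and 2 with siControl, was available as 1 peak list per library. Per the submitters' processing notes Bowtie, SAMtools, MACS3, bedtools and HOMER were used on build mm10, without versions, order or roles; duplicate filters and any Tn5 shift: not given in the sources used here. Per the peak names, peaks were called on a single alignment each, without pooling replicates. The deposited values are a fold enrichment (a ratio of the summit to the local background), −log10 p and −log10 q of the summit, a summit offset, and a score of 10 times the −log10 q; the authors' lists end at a −log10 q of about 2, that is a q-value of 0.01. They were used to describe, rank and filter peaks within a list.

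Peaks of chromosomes 1 to 19, X and Y were merged at 1 bp overlap, and the best peak by −log10 q gave a region's values in each library. Positions came from RefSeq tables of GRCm38.p6; the gene table has no strand, so gene ends are its start and end coordinates. Fold steps of peaks with a −log10 q under 8 gave the background pileup (33.8% to 46.2% of them on whole steps within 0.005), which was divided by the narrowest peak of the library to give an approximate relative density. Shares per library were compared by exact permutation over the 4 libraries. The merging was tested on simulated data (Python 3.11.15, pandas 2.3.3). The rule names every member, of which 1 is not reported here by name and stays in all counts; values are given for the best gene-end region (by mean fold enrichment) of the 10 highest and 3 lowest genes, each region called with 1 siRNA only and the leading region of each class reported. The members and lists were chosen with earlier results of these data known, and the comparison by rank was added after the data were examined. Start sequences, for 24 members, are those of RefSeq. Alternatives covered flanks, thresholds, list length, peak width, overlap, gene assignment and each library left out.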

Additional observations from a re-analysis of the deposited data

How the results depend on the processing

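The number of siChst7-only regions at members, 7, went to 3 with gene bodies only (1.27% of 237 regions, against 1.24% of all regions). It was 1 at a −log10 q of at least 10 (0.352%, against 1.0%) and 12 at equal list length (3.58%, against 1.98%). At a −log10 q of at least 5 it was 9 (2.59%, against 1.21%). The number of siControl-only regions, 11, went to 6 with gene bodies only (2.53%) and 17 with 50 kb flanks (3.07%), against 2.84% of all regions. It was 6 at a −log10 q of at least 5 (1.73%, against 2.70%) and 4 at equal list length (1.19%, against 2.05%). With peaks of at least 200 bp it was 7 (1.9%, against 2.64%). With 1 library left out they ran between 12 and 25 and between 16 and 31, and the shares of all regions were not determined there. Relative to 7 siChst7-only and 11 siControl-only regions, the order turned with a −log10 q of at least 5 (9 and 6), at equal list length (12 and 4) and without siChst7 replicate 2 (25 and 16), was a tie with peaks of at least 200 bp (7 and 7), and stayed at a −log10 q of at least 10 (1 and 10); over all regions the siChst7-only share stayed below the siControl-only share in the first pair of cases (1.21% and 2.70%, 1.98% and 2.05%). The siChst7-only share of all regions was also the lower one at a −log10 q of at least 10 (1.0% and 2.69%) and with peaks of at least 200 bp (1.36% and 2.64%). The cause of the turned order was not tested. Of the 18 regions called with 1 siRNA only, 3 siChst7-only and 2 siControl-only ones kept their pattern under the 3 filters (strength, list length and width). Regions called in all 4 libraries numbered 145 with gene bodies only and 368 with 50 kb flanks, as fewer or more regions were counted, and between 249 and 259 in 3 libraries. Members with a gene-end peak in all 4 libraries numbered between 14 (a peak over the end) and 24 (within 2.5 kb), against 41.6% and 60.9% of all genes.

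The difference in the share of peaks turned to −0.00982 percentage points at a −log10 q of at least 10 (exact permutation p = 0.333) and ran between 0.00366 and 0.0162 with 1 library left out. The difference in the median percentile, 0.0490, turned to −1.53 when peaks were ranked by fold enrichment, and ran between −0.331 and 0.429 with 1 library left out. With the replicate number as a block both differences were the same and the exact sign-flip p was 0.5, the smallest it can give; same-numbered libraries did not deviate together over shared regions (r = 0.011 over 55924 regions, a description), so the numbers were not taken to pair the libraries. Ranked by fold enrichment, 43 of the 244 shared member regions lay above and 56 below, against 19.5% and 18.4% of all shared regions. By this measure fewer member regions lay above than below, and over all shared regions more lay above than below. Depth is known only as a relative density, and a region without a call in siChst7 replicate 2 may be one that its depth could not show.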
